A study of Homo sapiens with 6 samples.

Results

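The genes described here are the 3 subunits of replication protein A (RPA1, RPA2 and RPA3) and 7 genes of the ATR checkpoint (ATR, ATRIP, CHEK1, CLSPN, RAD17, ETAA1 and RAD9A). They were taken by gene symbol and make up 10 of the 15585 genes in the table of read counts. RPA2 was chosen for its lower level after LSD1 depletion in this same contrast, so its values are a description and carry no test. The other 9 genes were taken for their place in the pathway, and the question is whether they moved with RPA2. In these libraries RPA2 stood at 42.8% of its control level. None of the other 9 genes passed the main test, which for 9 genes is near the 1.44% of all tested genes that passed. ETAA1 passed after a correction for GC content and length, as did 7.21% of all tested genes. With the replicate number as a block ETAA1 and RAD9A passed, as did 7.57% of all tested genes. ETAA1 and RAD9A had the largest differences among the 9, in opposite directions.

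RPA is a heterotrimer that coats single-stranded DNA during replication and repair. When forks stall, RPA-coated DNA recruits the kinase ATR through its partner ATRIP, while the RAD17 loader places the 9-1-1 clamp, of which RAD9A is a subunit, at the junction with double-stranded DNA. The kinase is then switched on by TOPBP1 at the clamp or by ETAA1 at RPA, and with the adaptor claspin (CLSPN) it phosphorylates CHK1, the product of CHEK1, which holds back origin firing and entry into mitosis.

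The cells were U2OS, a human osteosarcoma line, transfected for 48 h with control siRNA (siCTR) or with siRNA against the histone demethylase LSD1 (siLSD1), and total RNA of 3 libraries per group was sequenced. All 6 libraries share the line and the transfection. The methods name 2 siRNAs against LSD1 without saying which was used for RNA-seq, so an effect of one siRNA sequence and of the loss of LSD1 cannot be told apart. Nothing states that the libraries came from separate cultures, and p-values measure only the spread between these libraries. In RNA from a whole culture, fewer cells that express a gene and less RNA per cell cannot be told apart.

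The libraries held 12513511 to 13561344 counted reads. KDM1A, the gene that encodes LSD1, had 6140, 6493 and 6573 reads in siCTR against 1110, 1198 and 1246 in siLSD1, or 18.5% of the control level. Levels of single genes are counts scaled to the depth of each library (CPM, with TMM scaling), and means carry the SD over 3 libraries. The siCTR replicate 2 stood apart from the other siCTR libraries, its chi-square over genes, divided by the degrees of freedom, being 22.5 and 29.1 against them and 6.99 between those, and siLSD1 replicates 1 and 3 differed in their GC trend, with a Spearman rho of 0.70 and -0.69 across 11761 genes between transcript GC content and the deviation from the group mean. For siCTR replicates 1, 2 and 3 this rho was 0.40, -0.11 and -0.30, and for siLSD1 replicate 2 it was 0.14. Of the lineage markers, VIM (9487 to 11615 reads), FN1 (238 to 433 in siCTR and 609 to 794 in siLSD1) and COL1A1 (122 to 200) were present, whereas the osteoblast genes RUNX2 and SPARC were near 0, with at most 4 and 3 reads. FN1 rose in siLSD1 (log2 fold change 0.95 ± 0.18 SE, adjusted p = 0.0216 by edgeR), a call lost with siLSD1 replicate 1 or siLSD1 replicate 3 left out. Among markers of other cell types, PTPRC and PECAM1 had at most 1 and 3 reads and EPCAM 28 to 41, and the summed level of the list was 7.44 to 9.63 CPM in siCTR and 12.2 to 13.6 CPM in siLSD1, mostly from CDH1. COL1A2, of the lineage list, and ALB, of the list for other cell types, were not found under these symbols among the counted genes. The part of these markers in the results was not tested.

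The messages of RPA2 and CHEK1 carry the codons for the residues by which this pathway is usually read out, since RPA2 and CHK1 are phosphorylated at Ser-Gln or Thr-Gln pairs. The reads measured these messages and not the phosphorylated proteins. The coding strand is given from the GENCODE 44 transcripts on GRCh38, 5′ to 3′, with the Ser or Thr codon and the following Gln codon in capitals; for CHEK1 the pairs that ATR is known to phosphorylate were taken.
RPA2, Thr 21 and Gln 22, exon 2, chr1:27914102-27914131, minus strand: gccggcggctacACGCAGtccccggggggc
RPA2, Ser 33 and Gln 34, exon 2, chr1:27914066-27914095, minus strand: tcgcccgcacctTCTCAAgccgaaaagaaa
CHEK1, Ser 317 and Gln 318, exon 10, chr11:125644104-125644133, plus strand: aagtactccagtTCTCAGccagaaccccgc
CHEK1, Ser 345 and Gln 346, exon 10, chr11:125644188-125644217, plus strand: gggatcagctttTCCCAGcccacatgtcct
Both RPA2 sites lie in the N-terminal part of the protein and in 1 exon. The RPA2 message holds 5 such codon pairs in 270 codons, or 1.85 per 100, and the ETAA1 message 13 in 926, or 1.40 per 100. RPA1 has 0.649 per 100 codons, and RPA3 has none in 121 codons.

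RPA2 (chr1:27891524-27914746, minus strand) encodes the middle subunit of RPA, which carries the regulatory phosphorylation sites. It had 86.7, 111 and 83.7 CPM in the siCTR libraries and 38.4, 41.1 and 40.9 CPM in the siLSD1 libraries. Every siLSD1 library was below every siCTR library, and the lowest siCTR value, 83.7, was far above the highest siLSD1 value, 41.1. The means were 93.7 ± 14.9 and 40.1 ± 1.52 CPM, which is -1.22 ± 0.13 (SE) as a log2 fold change. The siCTR libraries spread with a coefficient of variation of 15.9%, against 2.86% from counting alone, and replicate 2 was the highest of them. The siLSD1 libraries spread by 3.78%, no more than the 4.36% that counting alone gives. Without siCTR replicate 2 the log2 fold change was -1.08. Of 11844 genes tested, 16 had a log2 fold change as low as that of RPA2 or lower, RPA2 included, and 4 of these had a mean level at or above that of RPA2.

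RPA1 (chr17:1829702-1900082, plus strand), the large subunit and the main DNA-binding one, had 271, 292 and 289 CPM in siCTR and 304, 305 and 316 CPM in siLSD1. The siLSD1 values lay just above the siCTR values without overlap, with a log2 fold change of 0.12 ± 0.10 (SE) that did not pass the test (adjusted p = 0.637 by the quasi-likelihood test of edgeR, adjusted over all tested genes after Benjamini-Hochberg, as for every adjusted p given). The 95% interval of the fold change ran from 0.931 to 1.26. RPA3 (chr7:7636518-7718607, minus strand), the small subunit that holds the trimer together, had 31.7, 43.99 and 33.8 CPM in siCTR and 37.1, 38.5 and 37.8 CPM in siLSD1. The siLSD1 values fell inside the range of the siCTR values, and the log2 fold change was 0.050 ± 0.14 (SE, adjusted p = 0.901) with a 95% interval of the fold change from 0.840 to 1.28. As for RPA2, siCTR replicate 2 was the highest library for RPA3. Without it the log2 fold change of RPA3 was 0.21. The annotated span of RPA3 overlaps UMAD1 on the opposite strand, and whether exons overlap was not examined. The strand setting of the counting is not given in the sources used here, so how reads of any shared stretch were assigned is not known.

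**Figure D1:**
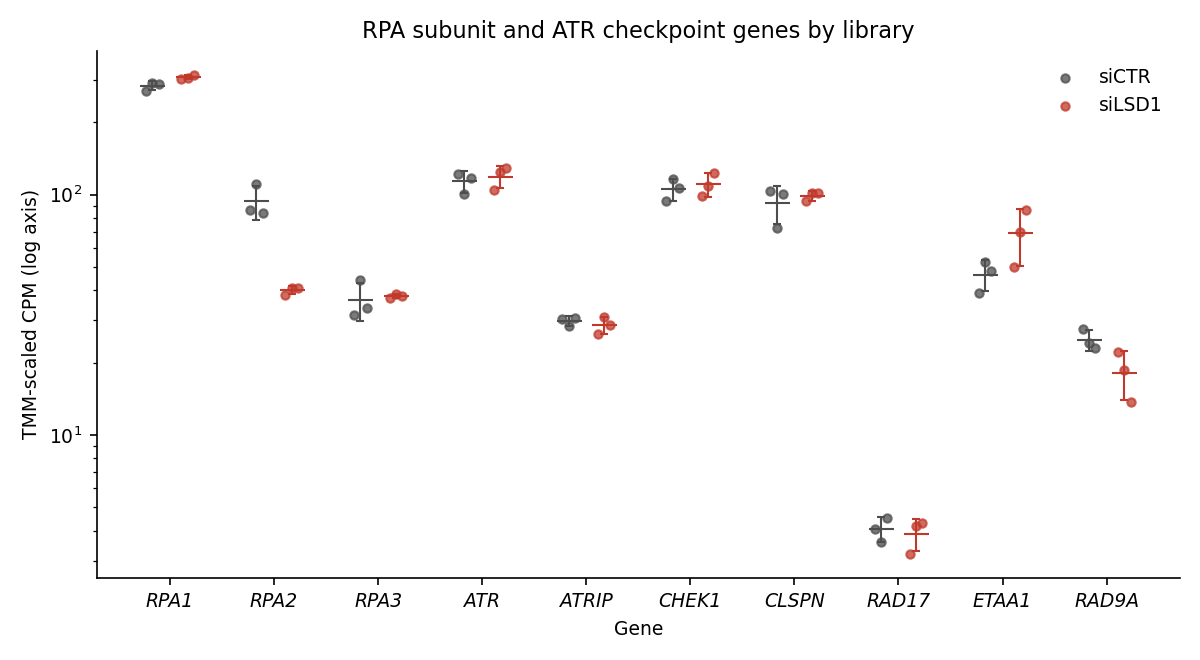
CPM (log axis) of the 10 genes in each library, with points for single libraries and horizontal lines with bars for the mean and SD of the 3 siCTR (grey) and 3 siLSD1 (red) libraries. RPA2, which was chosen for its fall, shows the widest gap between groups, with means of 93.7 and 40.1 CPM.

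To compare subunits with each other, the FPKM values deposited by the authors were used, which are scaled to gene length. In siCTR, RPA1 stood at 65.4 ± 2.04 FPKM, RPA2 at 46.3 ± 6.84 and RPA3 at 17.0 ± 2.84 (SD, n = 3), and these ranges did not overlap. In siLSD1 the values were 71.0 ± 1.21 for RPA1, 19.9 ± 0.593 for RPA2 and 17.7 ± 0.224 for RPA3, so that RPA2 came close to RPA3. The ratio of RPA2 to RPA1 was 0.688, 0.815 and 0.622 in siCTR against 0.272, 0.289 and 0.279 in siLSD1. The mean ratio in siLSD1 was 39.5% of that in siCTR. The ratio of RPA3 to RPA1 was 0.237, 0.305 and 0.237 in siCTR against 0.248, 0.256 and 0.243 in siLSD1, and these overlapped. The share of RPA2 in the summed FPKM of the 3 subunits was 35.9% ± 2.50 in siCTR and 18.3% ± 0.426 in siLSD1. Because RPA2 was chosen for its fall, these ratios are descriptions.

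**Figure D2:**
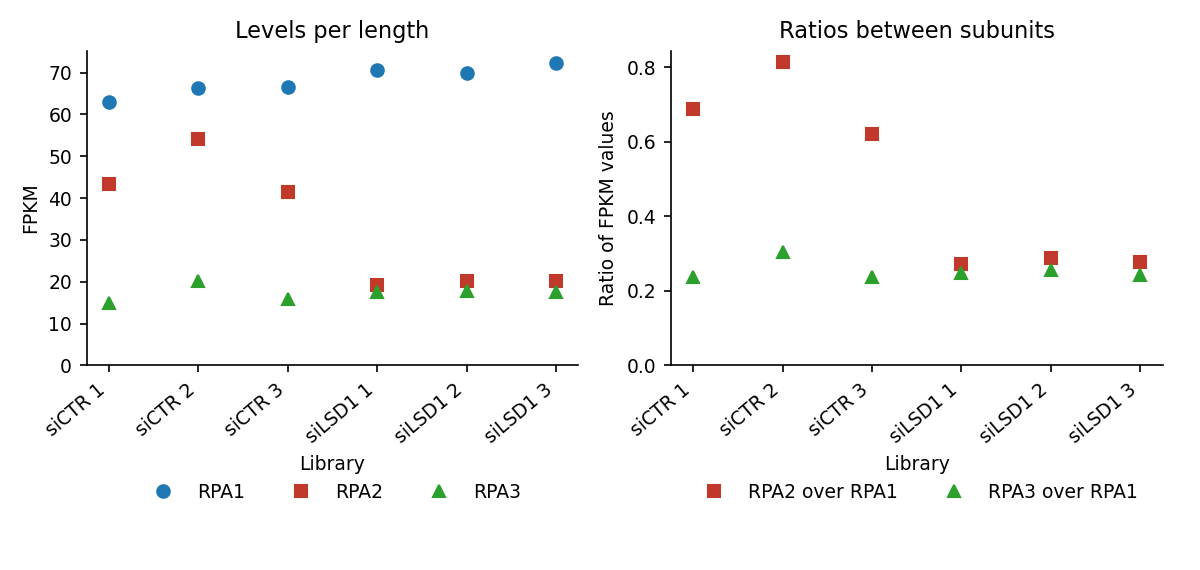
FPKM of RPA1, RPA2 and RPA3 in each library (left) and the ratios of RPA2 and RPA3 to RPA1 (right), with 1 point per library. RPA1 lies between 63.02 and 72.4 FPKM throughout, while RPA2 goes from between 41.4 and 54.1 FPKM in siCTR to between 19.2 and 20.3 FPKM in siLSD1, next to RPA3.

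The kinase and its partners showed no difference beyond the spread of the libraries. ATR (chr3:142449007-142578733, minus strand) had 122, 100.3 and 118 CPM in siCTR and 105, 124 and 129 CPM in siLSD1, with a log2 fold change of 0.068 ± 0.12 (SE, adjusted p = 0.838). ATRIP (chr3:48446710-48467645, plus strand), which ties ATR to RPA, had 30.5, 28.3 and 30.8 CPM in siCTR and 26.4, 30.97 and 28.7 CPM in siLSD1, with a log2 fold change of -0.059 ± 0.12 (SE, adjusted p = 0.866). The groups overlapped for both genes. The 95% interval of the fold change ran from 0.872 to 1.26 for ATR and from 0.797 to 1.16 for ATRIP. The log2 fold change of ATRIP moved to -0.11 with siLSD1 replicate 2 left out and to -0.0027 with siLSD1 replicate 1 left out.

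CHEK1 (chr11:125625163-125676255, plus strand), the effector kinase, had 94.3, 116 and 106 CPM in siCTR and 99.1, 109 and 123 CPM in siLSD1, a log2 fold change of 0.063 ± 0.12 (SE, adjusted p = 0.856). CLSPN (chr1:35720218-35769978, minus strand), on the same chromosome as RPA2, had 103, 72.7 and 100.2 CPM in siCTR and 93.9, 102 and 102 CPM in siLSD1, a log2 fold change of 0.11 ± 0.14 (SE, adjusted p = 0.763). For CLSPN, siCTR replicate 2 was the lowest library, and without it the log2 fold change was -0.035. The groups overlapped for both genes, and the 95% interval of the fold change was 0.867 to 1.26 for CHEK1 and 0.877 to 1.32 for CLSPN. CHEK1 overlaps STT3A on its own strand and ACRV1 on the other, ATRIP overlaps TREX1 on its own strand, and RPA1 overlaps SMYD4 on the other, so how reads of these stretches were assigned is likewise not given.

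RAD17 (chr5:69369293-69414801, plus strand), the clamp loader, was counted at only 43 to 61 reads per library, or 3.20 to 4.54 CPM. Its log2 fold change was -0.065 ± 0.23 (SE, adjusted p = 0.921), and the 95% interval of the fold change, 0.680 to 1.34, was the widest of the 10 on the log scale. The counts of RAD17 do not tell apart fold changes inside that interval. RAD17 overlaps AK6 and TAF9 on the opposite strand, and how the counting treated overlapping genes or reads that match several places is not given in the sources used here. RAD17 is known to be expressed in most dividing cells, and whether its low count and low FPKM give its true level was not tested.

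ETAA1 and RAD9A differed most after RPA2. ETAA1 (chr2:67397322-67412089, plus strand), the RPA-bound activator of ATR, had 39.0, 52.2 and 48.3 CPM in siCTR and 50.0, 70.2 and 86.7 CPM in siLSD1. The lowest siLSD1 library lay below the highest siCTR library, so the groups overlapped, and the siLSD1 libraries spread by 26.7%, against 3.32% from counting alone. The log2 fold change was 0.57 ± 0.18 (SE, adjusted p = 0.172), with a 95% interval of the fold change from 1.13 to 1.95. RAD9A (chr11:67317871-67398410, plus strand), the clamp subunit that binds TOPBP1, had 27.7, 24.1 and 22.98 CPM in siCTR and 22.1, 18.7 and 13.7 CPM in siLSD1. Each siLSD1 library was below each siCTR library, but the gap between the nearest values was smaller than the spread within siLSD1. The log2 fold change was -0.45 ± 0.17 (SE, adjusted p = 0.248), with a 95% interval of the fold change from 0.564 to 0.944.

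Of the 10 transcripts, ETAA1 had the lowest GC content (33.7%) and RAD9A the highest (60.2%), beside a median of 47.9% over the tested genes. The order of the siLSD1 libraries, with replicate 1 lowest and replicate 3 highest for ETAA1 and the reverse for RAD9A, ran the same way as the GC trend of these libraries. After a correction for GC content and transcript length the log2 fold change of ETAA1 was 0.56 and passed the test (adjusted p = 0.0177), whereas that of RAD9A was -0.37 and did not. Both genes passed in a fit with the replicate number as a block (adjusted p = 0.0012 for ETAA1 and 0.0195 for RAD9A by edgeR), and apart from these 2 fits neither passed with any other test, scaling, filter or counting tried or with a library left out. The annotated span of RAD9A overlaps POLD4, CLCF1 and PPP1CA on the opposite strand. Whether exons overlap was not examined, and how reads of shared stretches were assigned is not given. Without siLSD1 replicate 3 the log2 fold change was 0.37 for ETAA1 and -0.29 for RAD9A.

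Thus, of the 9 genes other than RPA2, 0 passed an adjusted p under 0.05 by edgeR, where 1.44% of all tested genes passed (1.07% higher and 0.371% lower in siLSD1). DESeq2 and limma-voom called 0 of the 9 as well, whereas the GC and length correction called 1 (ETAA1), beside 7.21% of all tested genes in that fit. A fit with the replicate number as a block called 2 (ETAA1 and RAD9A), beside 7.57% of all tested genes in that fit. Whether the numbers pair the libraries was not settled. At an unadjusted p under 0.05, 2 of the 9 passed (ETAA1 and RAD9A), beside 14.0% of all tested genes. The groups did not overlap in 2 of the 9 (RPA1 and RAD9A), beside 21.4% of all tested genes. The log2 fold change was above 0 in 6 of the 9 and below 0 in 3, with a median of 0.063, against -0.014 over all tested genes.

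By FPKM, the order of the 10 genes in siCTR was RPA1, RPA2, CHEK1, CLSPN, RPA3, ATR, RAD9A, ETAA1, ATRIP and RAD17. CHEK1 (19.5 to 23.5 FPKM), CLSPN (14.4 to 20.98), RPA3 (14.96 to 20.2) and ATR (11.99 to 14.99) each overlapped with the next in this order, ATR with RAD9A (10.8 to 13.2). RAD9A at 11.8 ± 1.28 and ETAA1 at 9.35 ± 1.26 FPKM did not overlap and lay above ATRIP at 5.83 ± 0.322 and RAD17 at 1.04 ± 0.129. In siLSD1 RPA2 stood behind CHEK1 and CLSPN, overlapping with CLSPN (19.1 to 20.4 FPKM), and ETAA1 (13.9 ± 3.61 FPKM) stood before RAD9A (8.59 ± 2.06).

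To see whether other genes of the pathway stood with RPA2, 52 further genes of the ATR and ATM network were listed by role. Of the 48 that could be tested, 0 passed an adjusted p under 0.05 by edgeR, beside 1.44% of all tested genes, and DESeq2 and limma-voom also called 0. The GC and length correction called 2 of the 48, beside 7.21% of all tested genes in that fit. These were TIMELESS at 0.24 and H2AX at 0.36 on the log2 scale, with H2AX at 0.11 ± 0.18 (SE, adjusted p = 0.820 by edgeR) without the correction. The fit with the replicate number as a block called 1 of the 48 (TELO2 at -0.41), beside 7.57% of all tested genes in that fit. At an unadjusted p under 0.05, 2 passed (SMARCAL1 and TIMELESS), beside 14.0% of all tested genes, and the groups did not overlap in 8 of the 48, beside 21.4% of all tested genes. The log2 fold change was above 0 in 27 genes and below 0 in 21, with a median of 0.0066. RPA2 was chosen for its fall, and only 16 of 11844 tested genes, RPA2 included, had a log2 fold change that low. With so few, a count of 0 in a list says little about it, and none of the 48 was that low. The lowest was TELO2 at -0.36, which moved to -0.096 with siLSD1 replicate 3 left out and to -0.57 with siLSD1 replicate 1 left out.

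Among genes that bind single-stranded DNA or RPA, 6 of 10 had a log2 fold change above 0. SMARCAL1, a helicase that binds RPA and remodels forks, had the highest at 0.34 ± 0.13 (SE, adjusted p = 0.250), with 270, 281 and 291 reads in siCTR against 381, 303 and 386 in siLSD1. HELB, a helicase that also binds RPA, had the lowest at -0.23 ± 0.14. For the clamp and its loading, 4 of 9 genes were above 0. HUS1, the clamp partner of RAD9A, had the lowest log2 fold change at -0.28 ± 0.13. RAD9B, the paralog of RAD9A, had the highest at 0.81 ± 0.48 but only 3 to 25 reads per library. TOPBP1, named outside the rule as the other activator of ATR, had 3169, 2867 and 3598 reads in siCTR against 2908, 3067 and 3730 in siLSD1, with a log2 fold change of 0.0087 ± 0.12.

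Of the fork mediators, TIMELESS had 2289, 1952 and 2311 reads in siCTR against 2787, 2554 and 2666 in siLSD1, with a log2 fold change of 0.29 ± 0.11 (SE, adjusted p = 0.240). Its partner TIPIN, which binds RPA2 directly, was at -0.061 ± 0.15. Of the cochaperones that mature ATR and related kinases, TELO2 was at -0.36 ± 0.22 and TTI1 at 0.084 ± 0.13. Among CHK1 targets and mitotic entry genes, the phosphatase CDC25B was highest at 0.15 ± 0.11 and the kinase CDK1 lowest at -0.095 ± 0.14. Among genes of checkpoint recovery, BTRC, an F-box protein that marks claspin for degradation, was highest at 0.20 ± 0.12, and FBXO6, one that marks CHK1, lowest at -0.28 ± 0.22. With 1 library left out BTRC ran from 0.10 (siCTR replicate 2) to 0.28 and FBXO6 from -0.47 (siLSD1 replicate 2) to -0.13 (siLSD1 replicate 3). In the ATM branch, which answers to double-strand breaks, 7 of 9 genes were above 0, with NBN highest at 0.24 ± 0.13 and RNF8 lowest at -0.18 ± 0.15. Without siLSD1 replicate 3 NBN was at 0.094, and without siCTR replicate 2 RNF8 was at -0.047. HUS1B and MDC1, with at most 3 and 1 reads, could not be tested, and RPA4 and INTS3 were not found under these symbols among the counted genes.

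**Figure D3:**
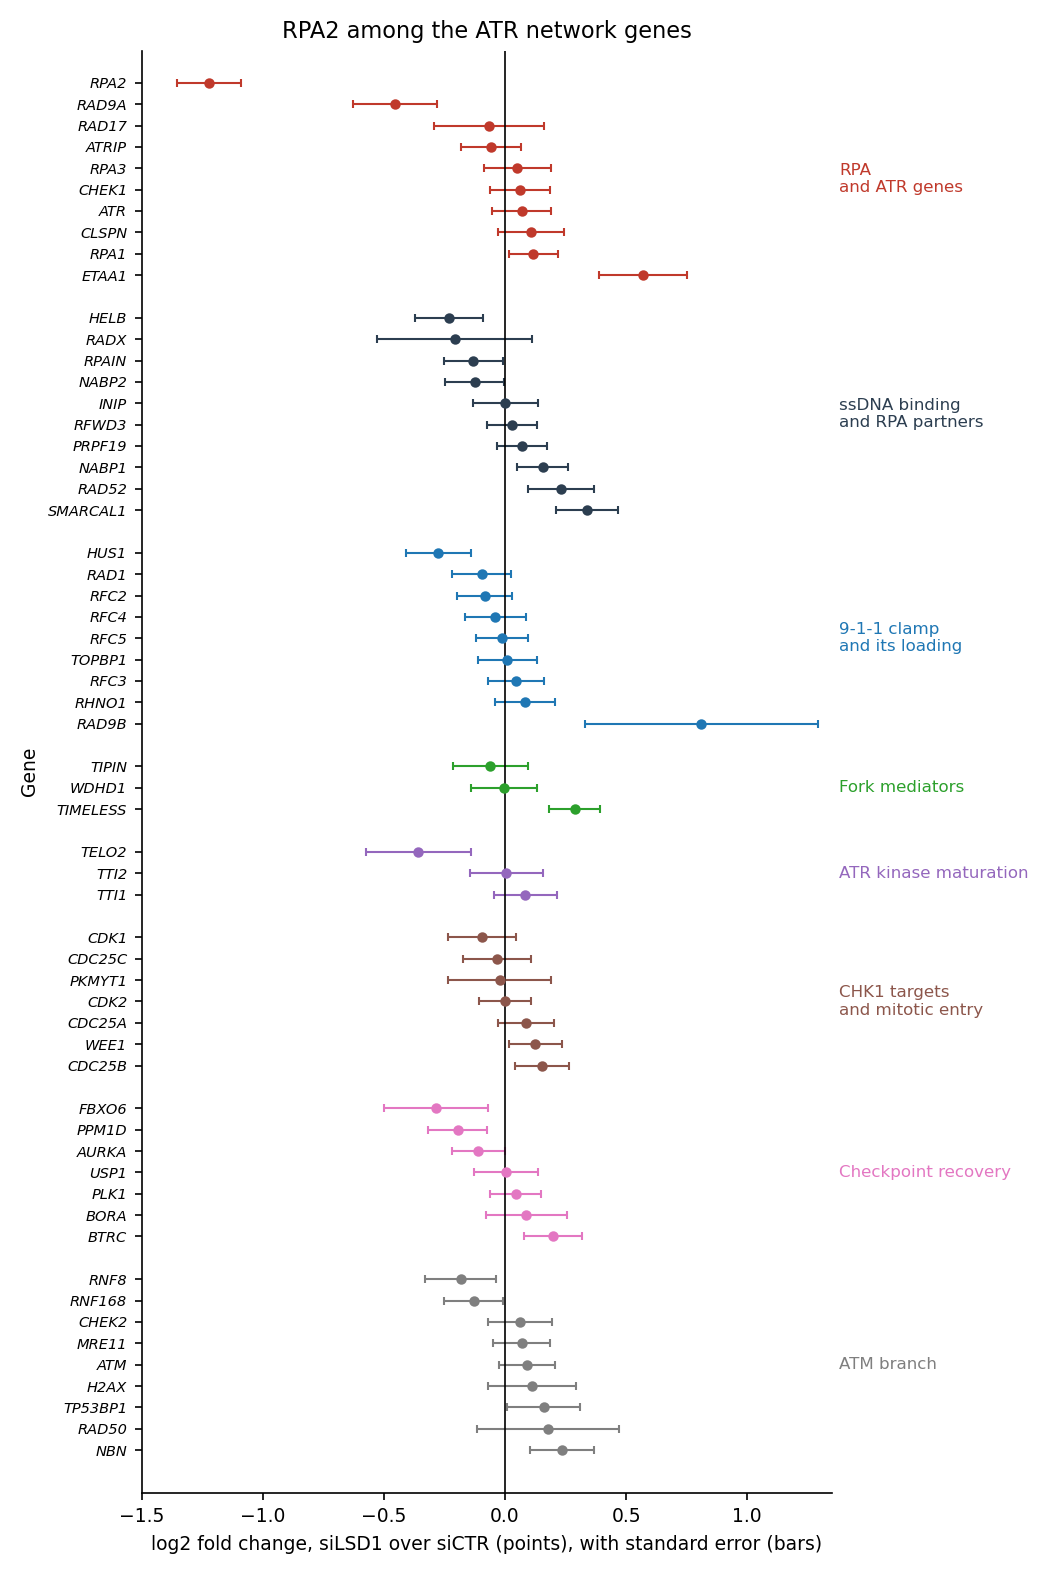
Log2 fold change of siLSD1 over siCTR (x axis) with its standard error for the 10 RPA and ATR genes and the 48 tested network genes, grouped by role and ordered by value in each group. RPA2 at -1.22 was chosen for its fall, and its place apart goes with that choice. The other genes run from -0.45 (RAD9A) to 0.81 (RAD9B).

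Genes of the cell cycle are given beside these values, since RPA and the checkpoint genes are used in S phase. Of 16 S phase genes 0 passed an adjusted p under 0.05, beside 1.44% of all tested genes, with 2 at an unadjusted p under 0.05, beside 14.0% of all tested genes, and 12 had a log2 fold change below 0 (median -0.085). The groups did not overlap in 4 of these 16 genes, beside 21.4% of all tested genes. Their summed level was 3633 to 3978 CPM in siCTR and 3623 to 3741 CPM in siLSD1. Of 12 G2/M genes 0 passed and 1 had an unadjusted p under 0.05, beside the same 1.44% and 14.0%. The groups overlapped in each of the 12, beside 21.4% without overlap among all tested genes, and 9 were above 0 (median 0.13). Their summed level was 3626 to 3949 CPM in siCTR and 3649 to 4445 CPM in siLSD1. Both sums overlapped between the groups.

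The position of RPA2 on chromosome 1 was not used to choose it. Of the 10 nearest tested genes, 5 on each side, 0 were lower by an adjusted p under 0.05, beside 0.371% of all tested genes, and 1 was higher, beside 1.07%. The median log2 fold change was -0.063. The gene that rose was STX12, an endosomal syntaxin, from 14.4 to 25.8 CPM (log2 fold change 0.84 ± 0.15 SE, adjusted p = 0.0157), and this call was lost without siCTR replicate 3 or without siLSD1 replicate 1. The groups did not overlap in 2 of the 10 genes, beside 21.4% of all tested genes.

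Of all tested genes, the 5 with profiles nearest to that of RPA2 were PRDX1, MAFA, IGIP, ST3GAL5 and WNT6. Nearness was the distance between log-CPM profiles centred on each gene's mean over the 6 libraries. PRDX1, a peroxiredoxin that removes hydrogen peroxide, was nearest at 0.239 and had 674, 873 and 647 CPM in siCTR and 327, 322 and 277 CPM in siLSD1. Like RPA2, PRDX1 was highest in siCTR replicate 2, and its siLSD1 mean was 42.2% of its siCTR mean. The others lay at 0.443 to 0.511 with far fewer reads, between 20 and 113 per library, and stood at 39.5% to 53.9% of siCTR. These genes were picked for their likeness in this contrast, so their values are a description and no p-value is given for them.

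**Figure D4:**
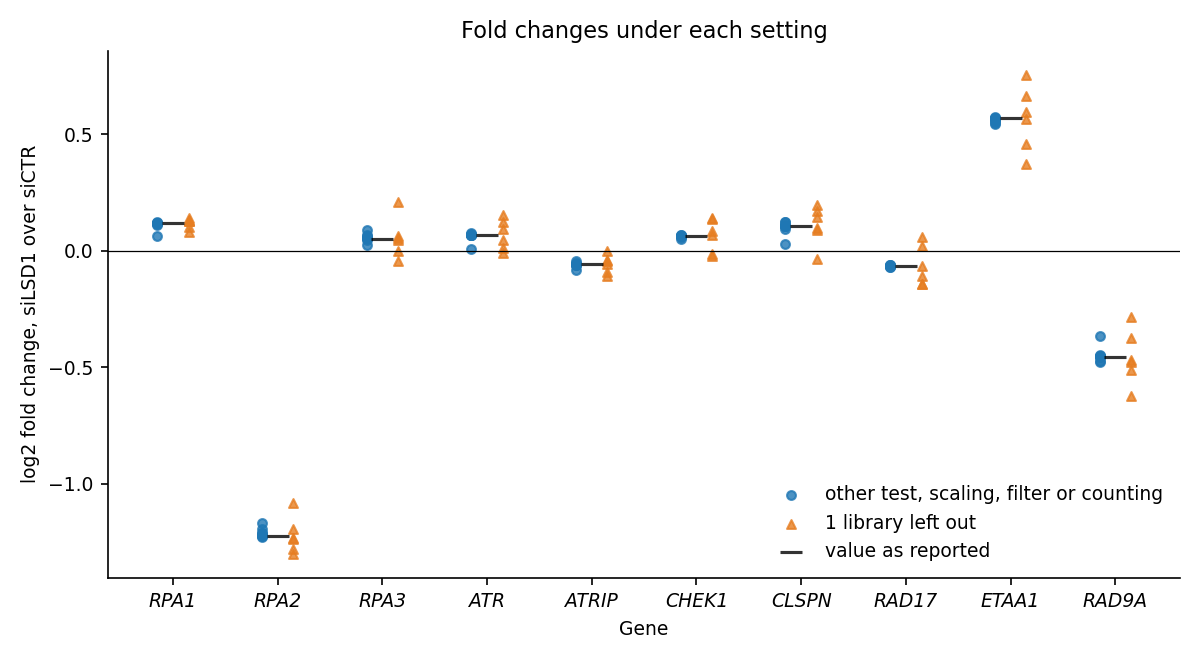
Log2 fold change of siLSD1 over siCTR (y axis) of the 10 genes as reported (black bars), under the other tests, scalings, filters, countings, the replicate block and the GC and length correction (blue), and with 1 library left out (orange). RPA2 stays between -1.30 and -1.08, whereas RPA3, ATR, CHEK1, CLSPN and RAD17 lie on both sides of 0.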

How the data were processed

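RNA-seq of 6 U2OS libraries, 3 siCTR and 3 siLSD1, was analysed; groups and replicate numbers came from the labels. Per the labels, STAR was the aligner, and the deposited counts are whole reads for each gene without normalization; build, annotation, counter and strand setting are not given in the sources used here. FPKM values deposited by the authors divide the reads by gene length and library depth. Tables of the 3 same-numbered library pairs hold a second, slightly higher set of counts by the authors, used as an alternative. The authors' fold changes, p-values and normalized values were not used.

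Counts were fitted in R 4.3.3 with edgeR 4.0.16 (filterByExpr with a minimum count of 10, TMM, quasi-likelihood test, no covariate); 11844 of 15585 genes were tested, with Benjamini-Hochberg adjustment and a threshold of 0.05. Log-CPM used a prior count of 2. DESeq2 1.42.0 and limma 3.58.1 (voom), other scalings and filters, a replicate block, each library left out, the second counts, and a GC and length correction were alternatives. The fit was tested on simulated data. The biological coefficient of variation was 12.6%. Positions, GC content and sequences came from GENCODE 44 on GRCh38, matched by symbol (14963 genes) or 1 older symbol (389), and not from the authors' files. Python 3.11.15 with pandas 2.3.3, scipy 1.17.1 and biopython 1.88 served for the rest.

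The genes and lists were chosen with earlier results of these data known. Named were KDM1A, the 10 genes, in each network list the highest and lowest tested gene, called network genes, the 5 profiles nearest RPA2, called neighbours of RPA2 and genes overlapping one of the 10. Markers are named from their lists, and cell cycle genes are given by counts, medians and summed levels.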

Additional observations from a re-analysis of the deposited data

How the results depend on the processing

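RPA2 was at -1.30 to -1.08 with each library left out and at -1.23 to -1.17 (log2) under the other alternatives. Of the other 9 genes, 2 passed with the replicate block (ETAA1 and RAD9A), 1 with the GC and length correction (ETAA1), and 0 under each other alternative, including each library left out. Of the network, 1 gene passed with the replicate block (TELO2), 2 with the GC and length correction (TIMELESS and H2AX) and 0 otherwise. Whether the replicate numbers pair the libraries was not settled. Same-numbered libraries correlated in their deviations at 0.33, 0.074 and 0.31, and different-numbered ones at -0.29 to 0.0072. Each siLSD1 library correlated best with its own number. Genes called higher numbered 127, with 210 by DESeq2, 489 with the replicate block, 518 with the GC and length correction and 45 to 99 with a library left out. Genes called lower numbered 44, with 113 by DESeq2, 102 with no filter, 408 with the replicate block, 336 with the GC and length correction and 7 to 37 with a library left out. Neighbours of RPA2 called numbered 0 to 1 with a library left out. Of the 5 nearest profiles, 1 (PRDX1) was among the 5 nearest by Pearson correlation. With a library left out, log2 fold changes ran from -0.043 to 0.21 for RPA3, -0.011 to 0.15 for ATR, -0.11 to -0.0027 for ATRIP, -0.024 to 0.14 for CHEK1, -0.035 to 0.20 for CLSPN, -0.15 to 0.058 for RAD17, 0.37 to 0.75 for ETAA1, -0.62 to -0.29 for RAD9A, -0.18 to 0.090 for TIPIN, -0.037 to 0.16 for TTI1, -0.22 to 0.029 for CDK1, -0.57 to -0.096 for TELO2, 0.094 to 0.34 for NBN, -0.32 to -0.047 for RNF8, 0.10 to 0.28 for BTRC, -0.47 to -0.13 for FBXO6 and 0.36 to 1.46 for RAD9B. With the GC and length correction TIPIN was at 0.013, RPA1 at 0.062, RPA3 at 0.090, ATR at 0.0055, CLSPN at 0.030, TELO2 at -0.21, TTI1 at 0.045, CDK1 at -0.0080 and WNT6 at -0.59, and with the second counts RPA3 was at 0.026. The changes of sign fell in genes with a difference near 0, and their cause was not tested. The ratio of RPA2 to RPA1 in siLSD1 was 37.2% to 42.7% of that in siCTR with a library left out. RAD17 had 43 to 61 reads, and its counting error (13.7% in siCTR) was the highest of the 10.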

Other observations

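Genes that overlap one of the 10 in the annotation were read beside it. UMAD1, opposite RPA3, had 268, 323 and 267 reads in siCTR against 182, 198 and 272 in siLSD1, with a log2 fold change of -0.40 ± 0.17 (SE, adjusted p = 0.299 by edgeR). SMYD4, opposite RPA1, had 397 to 503 reads and a log2 fold change of -0.14 ± 0.13. STT3A, on the same strand as CHEK1, had 2704 to 3451 reads and a log2 fold change of 0.090 ± 0.11. ACRV1, opposite CHEK1, had 6 to 19 reads. Of the genes opposite RAD9A, PPP1CA had 1526 to 1901 reads and a log2 fold change of -0.16 ± 0.11, CLCF1 98 to 152 reads and -0.048 ± 0.19, and POLD4 11 to 16 reads. None of these 7 genes passed an adjusted p under 0.05, beside 1.44% of all tested genes, and UMAD1 alone had an unadjusted p under 0.05, beside 14.0% of all tested genes.

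In the second set of counts deposited for the same libraries, the 10 genes had 1.06 to 1.18 times the reads of the first. RPA2 had 1227, 1511 and 1228 reads in siCTR against 563, 563 and 617 in siLSD1, a log2 fold change of -1.19 ± 0.13 (SE).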
